A study of Drosophila melanogaster with 4 samples.

Results

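The bric a brac (bab) locus on chromosome arm 3L held 14 peaks of the GFP-tagged Hox protein Abd-B, out of 833 peaks on 3L and 4389 peaks in all. The locus was taken as a window of 170 kb on FlyBase release 5 that starts 12.4 kb before the midpoint of its first peak, at chr3L:1032209-1032521, and a peak was counted in it when its midpoint lay in the window. The rule used position alone, and no score or width, but the locus was chosen with earlier results of these data known. The locus is named for its paralogous genes bab1 (CG9097, gene ID 38116) and bab2 (CG9102, gene ID 44254). In the RefSeq gene table, which is on release 6, bab1 and bab2 followed each other with no other listed gene starting between them. The protein-coding genes aln, trio and CG9205 stood before bab1 in that order, and CG13912, Trhn and LysX stood after bab2. Positions of the peaks relative to the genes were not analysed here, because the peaks and the gene table are on different releases.

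Binding was mapped by chromatin immunoprecipitation and sequencing (ChIP-seq) in whole larvae labelled L3 and of unknown sex. There were 2 libraries of DNA precipitated with a rabbit antibody against GFP and 2 libraries of input DNA. All 4 libraries carry the same labels for strain (Abd-B-GFP), for genotype (w; PBac{y[+]-attP-3B}VK00037) and for transgene, a genomic copy of Abd-B in which GFP replaces the stop codon. The protocol text names another stock (y; bw cn sp). No library from untagged larvae was used here, and the peaks come as 1 list that keeps no library apart, so the values here have no replicate error and the depth per library is unknown.

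The bab genes encode nuclear proteins with a BTB domain, which act as repressors of transcription. They are known for roles in the adult abdomen, the leg and the ovary. In the abdomen, Bab proteins hold back dark pigmentation. Abd-B, the most posterior Hox protein of the bithorax complex, acts on bab expression in the posterior segments, where male and female flies differ in colour. That pigmentation is laid down after the larval stage sampled here, and in a whole larva a peak averages over cells with and without Abd-B.

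The 14 peaks were grouped rather than spread along the locus. Splitting them at gaps over 5 kb gave 4 groups, called A to D here in their order along the arm. Group A held 4 peaks within 2.7 kb (chr3L:1032209-1034953). Group B was a single peak (chr3L:1077086-1077295). Group C, the largest, held 7 peaks within 12.7 kb (chr3L:1088743-1101444), and group D was a pair within 1.5 kb (chr3L:1177264-1178719). Of the 17 parts of 10 kb that make up the locus, 6 held a peak and 11 held none. This count of parts was not compared with other windows.

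**Figure D1:**
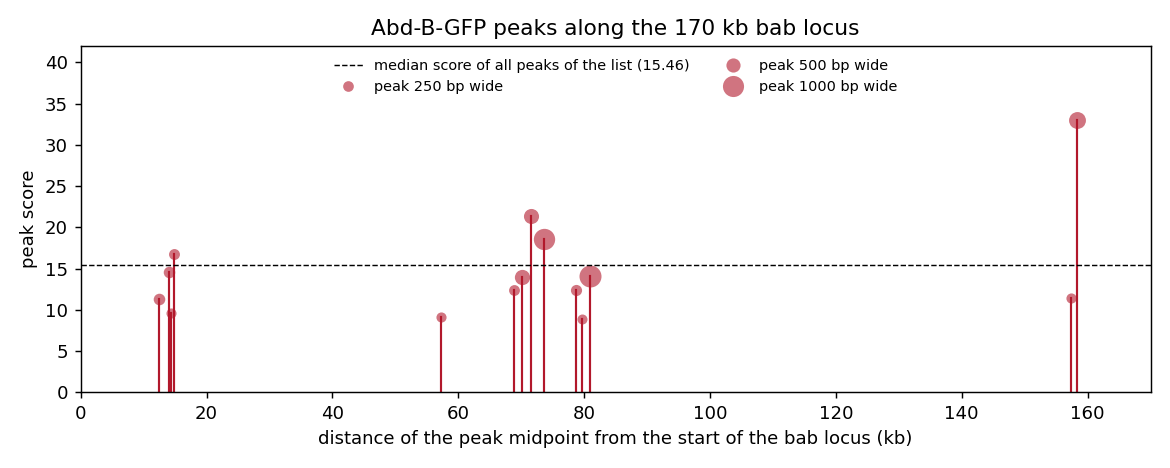
Score of each of the 14 peaks of the bab locus (vertical axis, the peak caller's score) against the distance of its midpoint from the start of the locus in kb (horizontal axis), with marker size for peak width and a dashed line at the median score of the whole list, 15.46. The peaks fall into 4 groups, 4 of them rise above the line, and the highest, at 158.4 kb, reaches 33.03.

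Group C carried most of the bound sequence. Its 7 peaks covered 3971 bp, or 64.2% of the 6184 bp covered at the locus. Their scores, in order along the arm, were 12.35, 14.01, 21.33, 18.57, 12.35, 8.91 and 14.15, and their widths were 261, 578, 567, 1015, 284, 201 and 1065 bp. Scores are those of the authors' peak caller, 1 per peak, and a higher one stands for stronger evidence. The middle of the group was highest, with the peak at chr3L:1091176-1091742 (567 bp) at 21.33 and its neighbour at chr3L:1093076-1094090 (1015 bp) at 18.57. The last peak of the group, at chr3L:1100380-1101444, was the widest of the locus at 1065 bp and had a score of 14.15. Inner gaps of this group ran from 533 to 4471 bp.

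On 3L, 5 of the 520 groups formed by the same split had 7 peaks or more, and group C was one of them. Groups of the same number of peaks lay at chr3L:8677847-8698679 over 20.8 kb (median score 12.99, highest 20.66) and at chr3L:17596381-17612580 over 16.2 kb (median 21.81, highest 71.12). The other two held 8 peaks at chr3L:13481683-13493232 (median 12.55, highest 16.32) and 14 peaks at chr3L:17550034-17572978 (median 19.69, highest 104.29). Group C stood in the middle of these 5 by both its median score of 14.01 and its highest score of 21.33.

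Group A was short beside all runs of 4 neighbouring peaks on 3L. Its scores, in order, were 11.31, 14.56, 9.66 and 16.72, and its widths were 313, 309, 205 and 266 bp. Its inner pair of peaks stood 61 bp apart, the shortest gap of the locus, and the next gap was 238 bp. Among 830 runs of 4 neighbouring peaks on 3L, 3 others were as short as its 2745 bp, and the median run spanned 60.1 kb. For the 7 peaks of group C, 9 other runs of the same number were as short, of 827, and the median run spanned 139.4 kb. For the pair of group D, 100 others were as short (12.0%), with a median of 11.2 kb. These runs overlap, so the counts describe the arm and are not a test. The groups were cut at gaps over 5 kb, while a run may cross such gaps, so the groups were short partly by construction. The same split gave 35 groups of at least 4 peaks on 3L, group A and group C included, and their spans were not compared as a set.

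The strongest peak of the locus was the last one. It lay in group D at chr3L:1178023-1178719, measured 697 bp and scored 33.03, which ranked 130 of the 833 peaks on 3L. Its partner at chr3L:1177264-1177476, 546 bp away, had a score of 11.45 and a width of 213 bp. The strongest peaks after it were those at 21.33 (rank 239) and 18.57 (rank 293) in group C, then the peak at chr3L:1034688-1034953 in group A at 16.72 (rank 340) and the one at chr3L:1033875-1034183 at 14.56 (rank 437). The single peak of group B was the most isolated of the 14, with 11447 bp to its nearest neighbour. It had a score of 9.18 and a width of 210 bp. The lowest score, 8.91, belonged to the narrowest peak, 201 bp wide at chr3L:1099646-1099846, which is also the smallest width in the whole list.

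Scores at the locus were modest. They ran from 8.91 to 33.03 with a median of 13.18 (quartiles 11.35 and 16.18), against a median of 14.87 (quartiles 10.85 and 24.23) and a highest score of 224.48 in the other 819 peaks of 3L. A score above 15.46, the median of the whole list, was reached by 4 of 14 peaks at the locus (28.6%, exact Clopper-Pearson 95% interval 8.39 to 58.1%), beside 46.6% of the other 3L peaks and 49.9% of the whole list. A score above the list's upper quartile of 28.21 was reached by 1 of 14 peaks (7.14%), beside 20.3% of the other 3L peaks and 24.9% of the whole list. The interval of the first share includes the share on the rest of 3L, so a lower share at the locus could not be told from counting error with 14 peaks. Peaks below the list's lower quartile of 11.06 numbered 3 of 14 (21.4%), beside 26.9% of the other 3L peaks. The interval covers counting error only and treats neighbouring peaks as independent.

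Widths at the locus were cut into a narrow and a wide set at their largest relative step, from 313 to 567 bp. Such a cut can be made in any list of widths, and it was not compared with other windows. The median was 296.5 bp (quartiles 225.0 and 575.2 bp), against 396.0 bp (279.5 and 585.0 bp) in the other 3L peaks. The 9 peaks up to 313 bp made up the whole of groups A and B and parts of C and D. The other 5 were at least 567 bp wide, with 4 of them in group C and 1 in group D. A width of 1000 bp or more was reached by 2 of 14 peaks (14.3%, exact 95% interval 1.78 to 42.8%), beside 6.47% of the other 3L peaks and 8.91% of the whole list. Both had low scores for that width. Of the 53 other 3L peaks at least as wide as 1000 bp, with a median score of 48.03, 0 scored below 14.15 and 4 scored below 18.57.

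**Figure D2:**
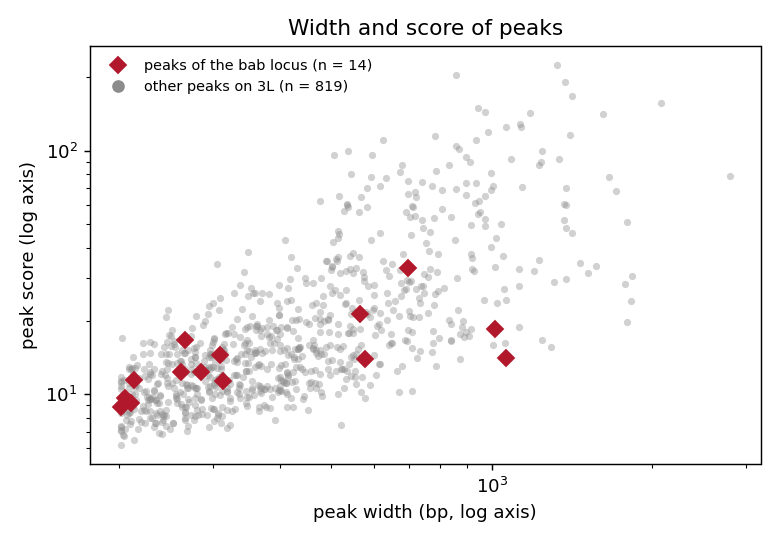
Score (vertical log axis) against width in bp (horizontal log axis) of the 14 peaks of the bab locus and of the other 819 peaks on 3L. The peaks of the locus follow the general rise of score with width up to the 697 bp peak at 33.03. Its 1015 and 1065 bp peaks lie low, at 18.57 and 14.15.

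Score and width went together at the locus and on the rest of the arm. Spearman's rho was 0.763 over the 14 peaks and 0.736 over the other 819. Peaks share libraries and a caller that ties both measures to the same signal, so these values are descriptions across peaks.

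Some of the scores can be read as counts. Over the whole list, 881 scores equalled, to 2 decimals, −log10 of a Poisson upper tail, the chance of exceeding some whole fragment count at a background of 66.43, and the file itself does not define the score. At the locus, 7 of 14 scores did so (50.0%, exact 95% interval 23.0 to 77.0%), beside 174 of the other 819 on 3L (21.2%). Among the 602 other 3L peaks with scores in the range of the locus, the share was 21.9%. The interval takes neighbouring peaks as independent. The background was the value, out of many searched, that gave the most matches in this same list, locus included. How many scores would match by accident was not worked out, so no excess at the locus is read from these shares. On this reading, the strongest peak of the locus stood for more than 186 fragments, the 21.33 peak for more than 158, both 12.35 peaks for more than 132, the 11.45 peak for more than 129, the 9.18 peak for more than 121 and the 8.91 peak for more than 120. These 7 peaks were 4 of the 7 in group C, both peaks of group D and the single peak of group B. In group A 0 of 4 scores matched, although the one at 14.56 missed by 0.01.

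The number of peaks at the locus was high for its size. The arm was tiled with windows of 170 kb outward from the locus, which gave 142 other whole windows. The locus had 14 peaks, against a median of 5 (quartiles 2 and 8, range 0 to 29) and a mean of 5.72 ± 4.67 (SD over windows) in the others. There were 5 windows with more peaks, 3 with the same number and 134 with fewer, so 5.63% of the other windows had at least as many. The locus held 1.68% of the 3L peaks on 0.696% of the stretch of 3L between its outermost peaks. Peaks covered 3.64% of the locus, against a median of 1.32% in the other windows, and 10 windows had more. The share of windows with at least as much covered was 7.04%, and it was 26.8% in the list cut at its median score, 15.6% with the narrowed locus, 12.1% over windows of 5 arms and 3.52% after merging. Windows are not replicates, so these ranks carry no p-value. The share of windows with at least as many was 25.4% once peaks under 1 kb apart were merged (7 regions at the locus), 29.6% among peaks at or above the median score of the list (4 peaks) and 16.1% with the locus narrowed by 20 kb at each end (8 peaks).

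**Figure D3:**
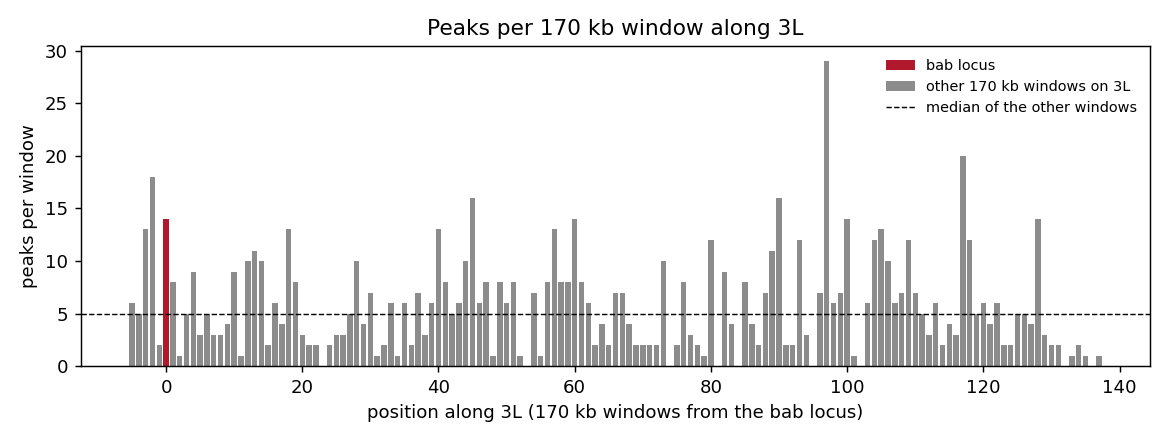
Number of peaks in each 170 kb window of 3L (vertical axis) against the position of the window, counted in windows from the bab locus (horizontal axis, the locus at 0), with a dashed line at the median of the other windows, 5. The locus holds 14 peaks, and 5 windows rise above it, up to 29.

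The 5 denser windows were spread along the arm. The densest, chr3L:17510000-17680000, held 29 peaks with a highest score of 104.29. The window chr3L:20910000-21080000 held 20 with a highest score of 70.23. A window near the locus, chr3L:680000-850000, held 18 peaks, and its highest score of 18.89 was below that of the bab locus. The windows chr3L:16320000-16490000 and chr3L:8670000-8840000 held 16 each, with highest scores of 110.61 and 124.51.

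Scores at the locus were below those of most windows in the list as deposited. Among the 97 other windows with at least 3 peaks, 63 had a higher top score than its 33.03 and 1 had the same, with a median top score of 45.1. The median score of 13.18 was exceeded in 67 of the 97 windows, and the median width of 296.5 bp in 86. Both places moved with the setting. With peaks under 1 kb apart merged and the highest score kept, the median score was 16.72 and 43.0% of windows had one at least as high, against 69.1% before, so the locus then stood above the middle window. In the list cut at its median score, with 4 peaks left at the locus, the median score was 19.95 and the share was 81.0% of 58 windows. The median width was 1079 bp after merging (3.23% of windows at least as high), 632 bp in the list cut at its median score (39.7%) and 425.5 bp in the narrowed locus (32.8%), against 88.7% for the 296.5 bp. Set beside the 17 windows with 11 to 16 peaks, which have a similar number, the locus had a lower top score than 14 of them, a lower median score than 15 and a smaller median width than 16. Their median top score was 77.2. The covered share was similar, with 8 of the 17 windows above the 3.64% of the locus and 9 below it.

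**Figure D4:**
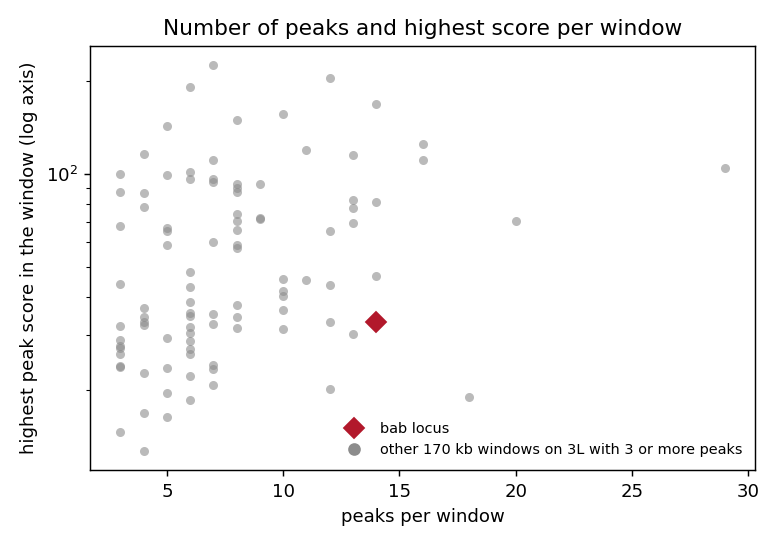
Highest peak score in a window (vertical log axis) against the number of peaks in it (horizontal axis) for the bab locus and for the 97 other 170 kb windows on 3L with 3 or more peaks. The locus lies at 14 peaks and 33.03, low among the windows with a similar number of peaks.

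Within the groups the peaks stood close together. The 13 gaps between the peaks of the locus had a median of 931 bp, against a median of 10047.5 bp over all 832 gaps on 3L. The confidence interval of the locus median, at the level used for the shares above, ran from 533 to 11400 bp. It includes the median on 3L, so the 13 gaps alone do not settle whether the median at the locus is shorter. This interval also treats neighbouring gaps of the locus as independent, and they are not replicates. Gaps under 1 kb made up 7 of 13 (53.8%) at the locus, against 19.1% on 3L. Of the 97 other windows with at least 3 peaks, 96 had a longer median gap. All 17 windows of similar number had a longer one, from 977 to 12000 bp. With peaks under 1 kb apart merged, the median gap at the locus was 7959 bp and 71.0% of windows had one at least as long. In the list cut at its median score, 4 peaks of the locus were left and the median gap was 56222 bp. Only 58 other windows had a median there, and 3.45% of them had one at least as long. Of the gaps inside the locus, 3 of 13 were over 10 kb (23.1%), against 416 of 832 on 3L (50%). The 13 leave out both gaps that cross the borders, of 62948 and 12803 bp, while the 832 keep every gap. The share of long gaps at the locus is thus low partly by construction. For the same reason its share of gaps under 1 kb is raised and its median gap shortened, beside all gaps on 3L. The gap between groups C and D was 75.8 kb, and 10.7% of the gaps on 3L were at least as long. The gap between groups A and B was 42.1 kb (20.4% at least as long) and that between B and C 11.4 kb (46.8%). These 3 gaps made up 76.1% of the locus. The longest gap was longer than that of 13 of the 17 windows of similar number, whose median was 57372 bp.

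**Figure D5:**
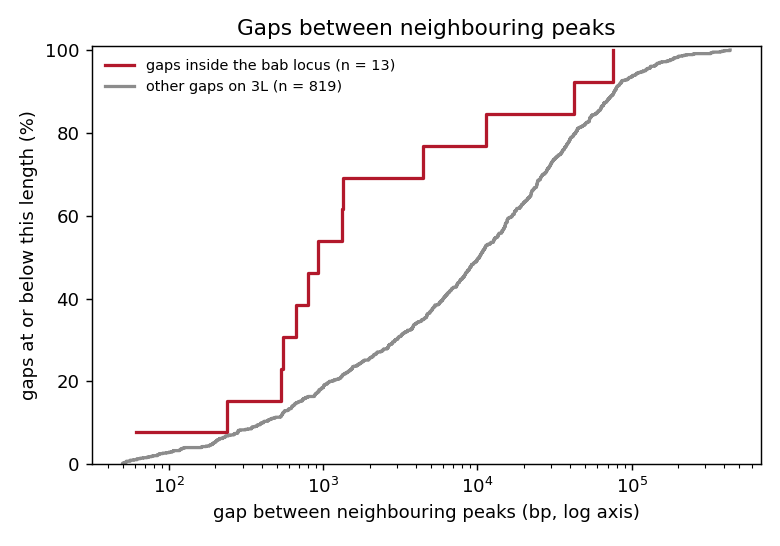
Cumulative share of gaps in percent (vertical axis) by gap length in bp (horizontal log axis) for the 13 gaps inside the bab locus and the other 819 gaps on 3L. The curve of the locus rises early, with 53.8% of gaps under 1 kb. Of its 13 gaps 3 (23.1%) are over 10 kb, up to 75819 bp, against 50% of all gaps on 3L. Both gaps that cross the borders of the locus are counted with the other gaps.

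The flanks of the locus differed from it. The 170 kb before it held 2 peaks with scores of 17.38 and 78.12. The 170 kb after it held 8 peaks with scores from 8.25 to 92.54. Each flank thus had a stronger peak than any at the locus, at chr3L:967599-969260 (1662 bp) before it and at chr3L:1349514-1350602 after it. Just outside the borders, the nearest peak before was that 78.12 peak, 62.9 kb from the first peak of the locus, which had a score of 11.31. The nearest one after was at chr3L:1191523-1191828, with a score of 8.25, and lay 12.8 kb from the last peak of the locus with its 33.03. It was left out because its midpoint fell 1675.5 bp beyond the border.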

How the data were processed

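Per the file headers, the deposited peak list is on FlyBase release 5, with MACS as its source. The submitters' processing notes list MACS2 and BWA, without versions, and CASAVA (1.7.0.2, 1.7.0.3). The call threshold, the read filters and the use of input in the call were not given in the sources used here. Used as the authors deposited them were the score of each peak and its first and last base. Peaks were assigned to the locus and to windows by midpoint, and gaps are the bases between neighbouring peaks. Medians per window needed 3 peaks or more. Counting and the search for the Poisson background were tested on simulated data. There every score came from a single background, while in the list 881 of 4389 scores matched, so false matches were not tested. Calculations used Python 3.11.15, numpy 2.4.6, pandas 2.3.3 and scipy 1.17.1. The named peaks are the 5 with the highest score, the widest and the most isolated, with all others given in ranges or by group; the narrowest and the flanking peaks were named after their values were seen. Locus and lists were chosen with earlier results of these data known. The split into groups, the cut of the widths, the Poisson reading and the runs of peaks were chosen after seeing the data. Peaks at other pigmentation genes and motifs in promoters or peaks were not analysed here, for want of sequence and annotation on release 5.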

Additional observations from a re-analysis of the deposited data

How the results depend on the processing

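The count of 14 peaks and the 5.63% of other windows with at least as many depended on how peaks and borders were set. In the stricter list (scores at or above the median of all peaks) 4 peaks were left, and 29.6% of windows had at least as many. That such a cut leaves no more peaks follows by construction, while how many it left at the locus does not. With peaks under 1 kb apart merged, 7 regions were left, and the percentage was 25.4%. With the locus and windows narrowed by 20 kb at each end, 8 peaks were left, because groups A and D lie near the borders, and the percentage was 16.1%. The covered share was 1.5% in the stricter list, 5.86% after merging, 3.22% in the narrowed and 3.3% in the widened locus. The median score was 19.95 and the median gap 56222 bp in the stricter list. The median width was 1079 bp after merging. Widening the locus gave 16 peaks and 5.22%, windows every 10 kb gave 5.89%, and windows on 5 arms gave 7.06%. After merging, the median gap was 7959 bp, and 71.0% of windows had one at least as long, against 99.0% before. In the stricter list, with 4 peaks left at the locus, that was 3.45% of 58 windows. Splitting at gaps over 2, 10 or 20 kb gave 5, 4 or 3 groups. No paired analysis was possible because all libraries were reduced to a single list, so leaving out a replicate was not possible either. The depth of the libraries is unknown, and its effect on the peaks was not tested.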
